A study of Mus musculus with 6 samples.

Results

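Tcf7, Lef1, Bcl11b, Gata3, Satb1, Tox and Ets1 encode 7 transcription factors that build and keep T cell identity, and their open chromatin was compared region by region in blood leukocytes of control mice and of mice in high-altitude de-acclimatization (HADA). A peak belonged to a gene if its summit, the base of highest signal, lay in the gene body or within 3 kb of an annotated transcript start in GENCODE M39 on the GRCm39 mouse assembly. The peaks of the 6 libraries were merged wherever they shared 1 bp, which gave 62876 regions over the main chromosomes. The 7 genes held 75 of them, and 27 of these 75 had a peak in all 6 libraries, as did 23970 of all regions.

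The assay was ATAC-seq, in which the Tn5 transposase cuts open DNA and leaves sequencing adapters there. Both groups were young adult male C57BL/6j mice. The 3 HADA libraries came from animals kept for weeks in a hypobaric hypoxia chamber and then returned to normal oxygen, and the 3 control libraries from animals that stayed in normal oxygen throughout. Cells were the unsorted white cells of peripheral blood after red cell lysis, called leukocytes in the labels and mononuclear cells in the study's results, and neither the day of sampling nor how mice map to libraries was given in the sources used here, so the p-values measure the spread between these libraries. In such a mixture, fewer cells of a type and less accessibility per cell cannot be told apart.

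T cell identity is set step by step in the thymus. Notch signals from the thymic stroma switch on TCF-1, the product of Tcf7, together with GATA3, and these in turn allow BCL11B, which closes the way to other blood lineages. LEF-1 is the close relative of TCF-1, and both are DNA-bending HMG-box proteins that keep naive and memory T cells in a resting, self-renewing state. SATB1 folds chromatin loops in thymocytes and is needed for regulatory T cells, TOX is an HMG-box protein required for CD4 T cell development and retained in exhausted T cells, and ETS1 is an activator used by T cells and also by B and NK cells.

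All 3 HADA libraries held more peaks at these genes than any control library. The counts were 50, 38 and 36 peaks in control 1, 2 and 3, and 61, 58 and 59 in HADA 1, 2 and 3. The lists also differed in length, from 41475, 41214 and 34045 peaks for control 1, 2 and 3 to 44401, 44044 and 45799 for HADA 1, 2 and 3. Per 10000 peaks of the library, the members had 12.1, 9.22 and 10.6 peaks in the controls and 13.7, 13.2 and 12.9 in HADA, so the groups did not overlap on this scale either. Read depth was unknown, since the files hold peaks and no reads. The number of fragments stacked at a summit, the summit pileup, was solved from the deposited fold enrichment and −log10 p of each peak. Its genome-wide background was 1.69, 2.05 and 1.83 in the controls and 2.34, 1.99 and 2.27 in HADA, and the smallest pileup that could be called at that background was 7 to 8 in the controls and 8 to 9 in HADA.

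Library control 3 stood apart from the other controls at B cell and neutrophil markers. Pileups were set on the log2 scale and centred on the median shared region of the library. The median centred value of the 27 member regions was -0.47, -0.61 and -0.91 in control 1, 2 and 3 and -0.03, 0.00 and 0.02 in HADA 1, 2 and 3. For B cell markers it was 0.02, -0.57 and -1.81 against 1.20, 1.30 and 1.30, and for neutrophil markers 0.24, 0.01 and 1.21 against -0.98, -1.74 and -1.70. Control 3 was thus lowest at the members and B cell markers and highest at neutrophil markers, as the plot of lists by library shows. The part of the cell mixture in the member differences was not tested.

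**Figure D1:**
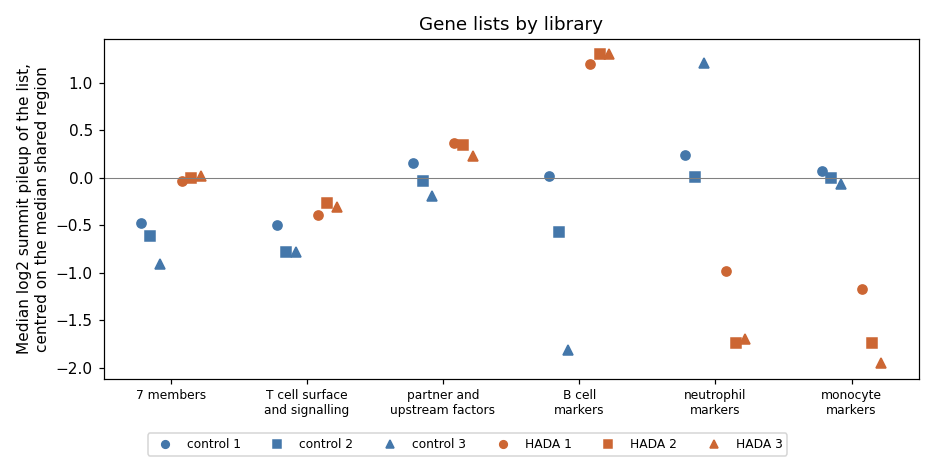
The vertical axis is the median log2 summit pileup of a gene list's shared regions in 1 library, centred on that library's median shared region, and each point is 1 library (blue, control; orange, HADA). The 7 members, the T cell list and the B cell list stand higher in HADA, the neutrophil and monocyte lists stand lower, and control 3 is the extreme control at the B cell and neutrophil markers.

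Most of these regions lay inside introns. Of the 75 summits, 67 were intronic, 4 in a UTR exon, 1 in a coding exon, 1 in another exon and 2 just outside a gene body, and 12 regions held an annotated start. Some summits also lay in the body of another annotated gene or within 3 kb of its start. Among the called regions these genes included Lef1os1 at the Lef1 start, Gata3os at Gata3, Gm68786 at the Tox start and Gm69170 at Ets1 +16.1 kb. The 50 bases around each of the 75 summits had 1 copy in the genome. The plot of regions along the genes shows where they lie.

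**Figure D2:**
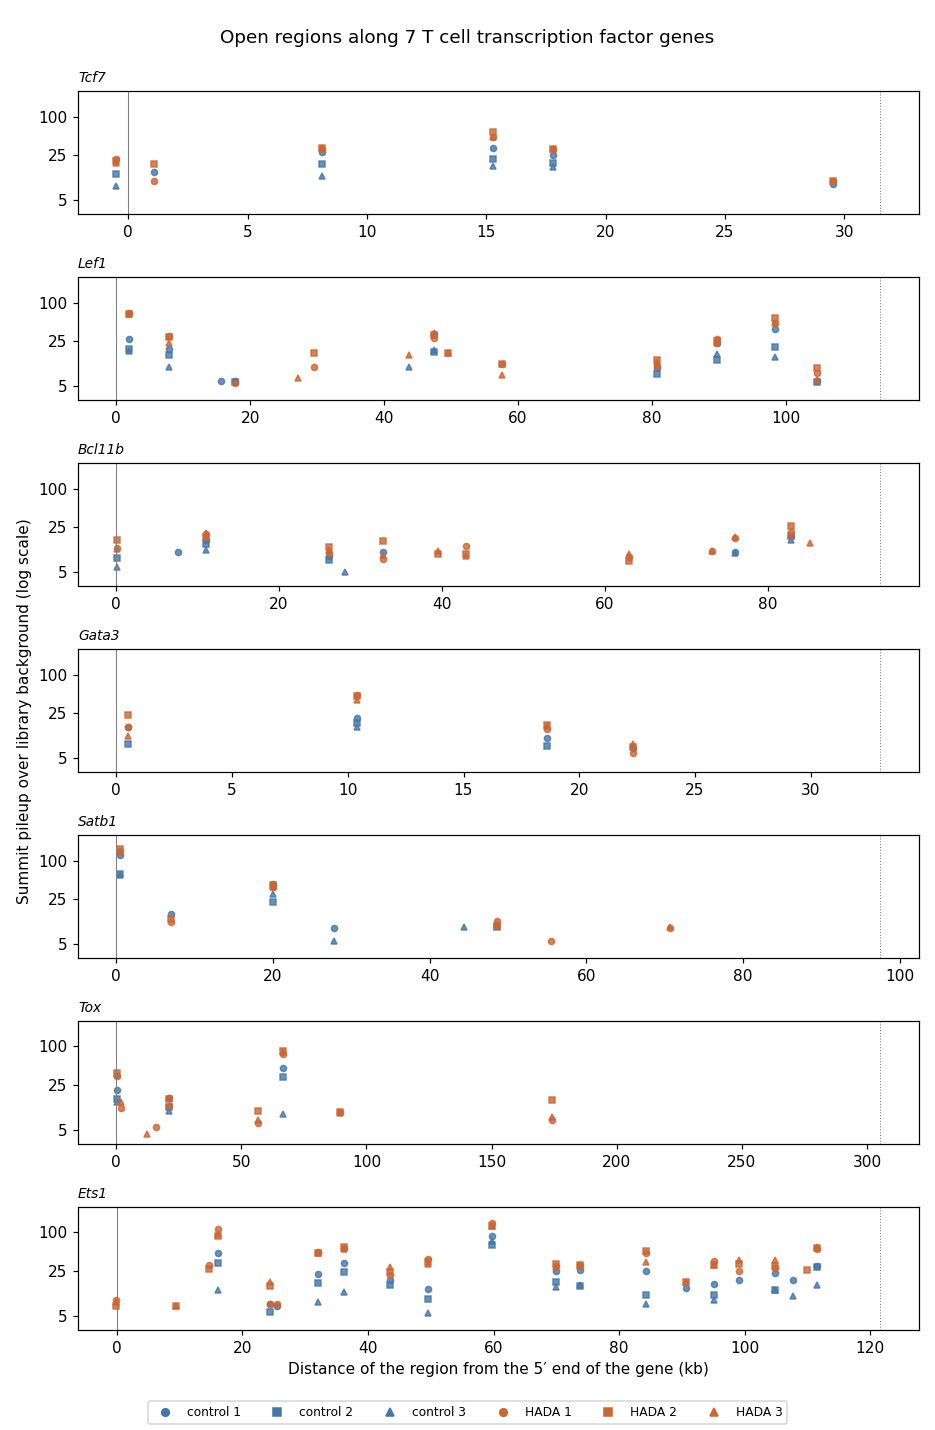
Each panel is 1 gene, with the distance of a region from the gene's 5′ end (solid line; dotted line, 3′ end) in kb on the horizontal axis and its summit pileup divided by the library's background on a log vertical axis. Each point is the peak of 1 library (blue, control; orange, HADA), and points are absent where a library had no peak. The orange points stand above the blue ones at most of the Ets1 regions. The gap is smaller at the 2 Bcl11b regions present in all libraries, while 5 other Bcl11b regions have orange points alone and 2 have blue points alone.

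The sequences that carry the comparison are printed here from GRCm39, 201 bases centred on the summit and read 5′ to 3′ along the gene. The first 5 are regions that were higher in HADA, the Bcl11b region stands as a contrast that was not called, and the last 2 had a peak in every HADA library and in no control library. Capitals mark matches, on either strand, to 6-letter cores of factors in this network: CTTTGA for TCF/LEF, AGATAA for GATA factors, CCGGAA for ETS, TGTGGT for RUNX, TGACCA for BCL11 and the E-box CAGCTG.
Tcf7 intron, +15.3 kb, chr11:52159259-52159459, minus strand: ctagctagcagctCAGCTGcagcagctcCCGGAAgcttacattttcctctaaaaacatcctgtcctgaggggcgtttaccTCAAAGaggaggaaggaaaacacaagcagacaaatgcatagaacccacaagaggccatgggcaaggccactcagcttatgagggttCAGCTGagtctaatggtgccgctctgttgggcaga
Gata3 start region, +10.4 kb, chr2:9884305-9884505, minus strand: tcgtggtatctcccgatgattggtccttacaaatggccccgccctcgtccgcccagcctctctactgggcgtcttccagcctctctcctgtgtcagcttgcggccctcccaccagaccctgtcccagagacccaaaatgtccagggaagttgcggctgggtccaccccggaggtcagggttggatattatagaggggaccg
Lef1 intron, +98.4 kb, chr3:131002202-131002402, plus strand: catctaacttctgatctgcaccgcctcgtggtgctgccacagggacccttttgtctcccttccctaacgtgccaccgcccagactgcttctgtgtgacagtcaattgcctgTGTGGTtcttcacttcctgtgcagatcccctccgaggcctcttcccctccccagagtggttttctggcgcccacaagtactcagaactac
Ets1 intron, +36.2 kb, chr9:32583568-32583768, plus strand: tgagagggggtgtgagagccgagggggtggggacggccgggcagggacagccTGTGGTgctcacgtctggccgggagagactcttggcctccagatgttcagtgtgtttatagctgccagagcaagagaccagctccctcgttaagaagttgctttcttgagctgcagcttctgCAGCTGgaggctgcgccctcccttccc
Ets1 intron, +49.6 kb, chr9:32597050-32597250, plus strand: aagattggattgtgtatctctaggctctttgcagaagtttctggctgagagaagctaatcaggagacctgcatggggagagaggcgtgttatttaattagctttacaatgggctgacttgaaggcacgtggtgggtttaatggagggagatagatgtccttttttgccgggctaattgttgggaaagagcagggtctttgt
Bcl11b intron, +11.0 kb, chr12:107959324-107959524, minus strand: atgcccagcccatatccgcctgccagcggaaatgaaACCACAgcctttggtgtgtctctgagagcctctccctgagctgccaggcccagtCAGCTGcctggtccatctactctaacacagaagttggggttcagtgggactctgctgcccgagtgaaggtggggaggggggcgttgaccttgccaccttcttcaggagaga
Lef1 intron, +57.6 kb, chr3:130961421-130961621, plus strand: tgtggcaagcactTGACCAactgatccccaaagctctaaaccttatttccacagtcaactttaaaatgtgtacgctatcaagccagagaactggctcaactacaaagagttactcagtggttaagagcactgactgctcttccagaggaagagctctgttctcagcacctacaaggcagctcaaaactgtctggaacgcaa
Ets1 5′ end, -0.1 kb, chr9:32547308-32547508, plus strand: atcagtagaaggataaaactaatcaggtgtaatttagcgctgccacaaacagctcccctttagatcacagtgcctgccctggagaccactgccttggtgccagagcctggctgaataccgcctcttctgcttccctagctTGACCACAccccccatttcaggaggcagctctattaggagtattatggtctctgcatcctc

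The motif cores were counted in the members and in all regions. In windows reaching 100 bp to either side of the summit, 13 of the 75 regions (17.3%) had a TCF/LEF core, against 11.4% of all 62876 regions. RUNX cores were found in 15 regions (20%, all 17.6%), E-boxes in 10 (13.3%, all 12.4%), BCL11 cores in 8 (10.7%, all 10.1%), ETS cores in 5 (6.67%, all 7.16%) and GATA cores in 3 (4%, all 7%). A BCL11 core followed by CA is at the same time a RUNX core on the other strand, as in the window at the Ets1 5′ end. The Tcf7 window at +15.3 kb held a TCF/LEF and an ETS core and 2 E-boxes, while the Gata3 and the Ets1 +49.6 kb windows held none of the 6. A match is a description of letters and shows no binding.

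The heights of the 27 regions present in every library were compared as the log2 summit pileup centred on the median shared region of the library, with limma over all 23970 shared regions and a Benjamini-Hochberg adjusted p under 0.05 as the call. Of the 27, 12 were higher in HADA, 0 were lower and 15 were not called. At an unadjusted limma p under 0.05, 17 (63.0%) were higher and 0 lower, against 23.5% and 29.0% of all shared regions. The differences were positive in 24 and negative in 3. By the adjusted p, 17.9% of all regions tested were called higher and 24.1% lower, whereas 44.4% of the member regions were called higher. The genes did not share these calls evenly. Ets1 alone held 11 of the 27 regions and 7 of the 12 calls, and no region was called at Bcl11b or Satb1. The median difference of the 27 was 0.64 on the log2 scale, beside -0.04 over all shared regions, of which 47.9% were positive. In 20 of the 27 (74.1%) the HADA libraries lay wholly above the controls and in 0 wholly below, where 29.4% and 31.2% of all shared regions did so.

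The number of calls depended on the scale. With the pileup divided by the genome-wide background of its library, 20 of the 27 (74.1%) were called higher and 0 lower, against 31.0% and 18.3% of all regions, and the median member difference was 1.02 where the median of all regions had shifted to 0.34. This scaling moved the share of higher calls among all calls over the genome from 42.7% to 62.8%. With the rank of the authors' fold enrichment within the library, which is taken over local background, 3 member regions (11.1%) were called higher, namely Tcf7 +15.3 kb, Ets1 +32.1 kb and Ets1 +49.6 kb, and 0 lower, against 6.56% and 4.78% of all regions.

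**Figure D3:**
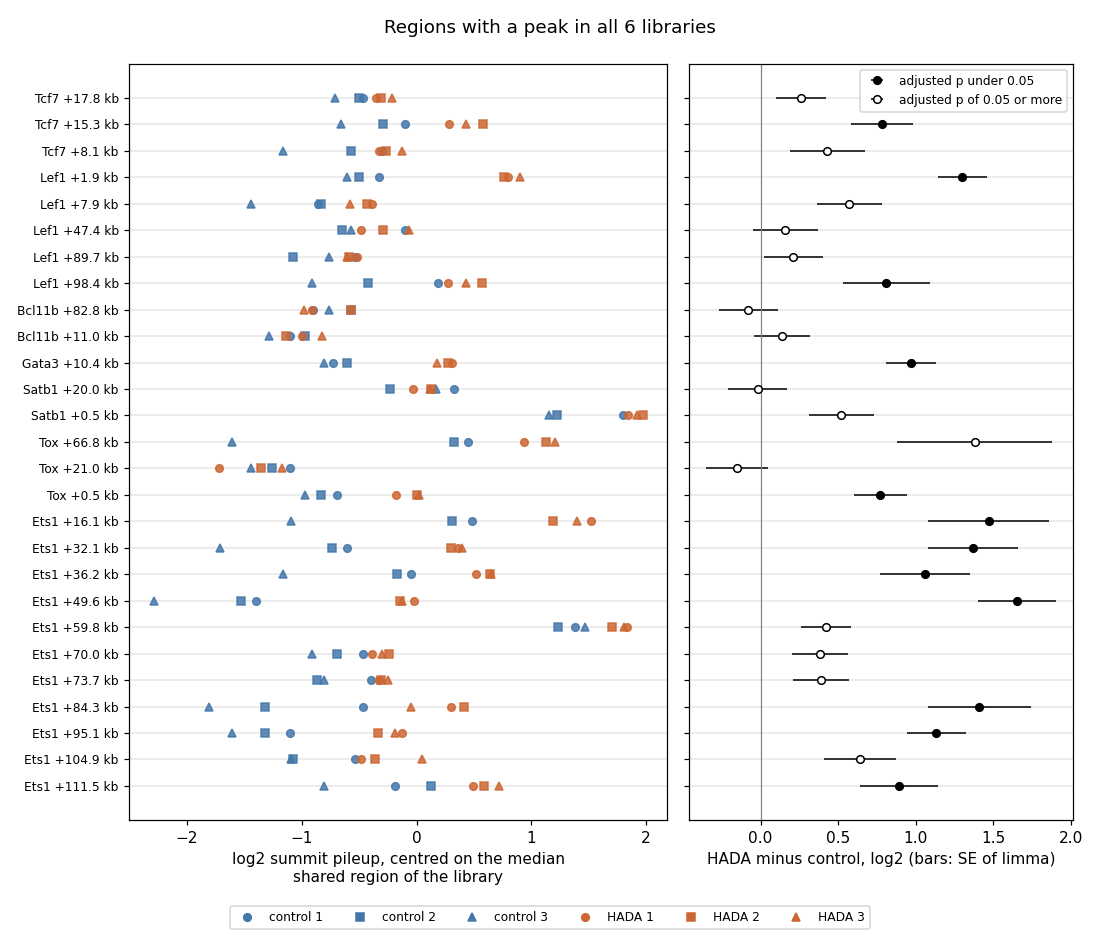
Left, the log2 summit pileup of each library (blue, control; orange, HADA), centred on its median shared region, for the 27 regions present in all 6 libraries; right, the difference HADA minus control with its standard error from limma, filled where the adjusted p was under 0.05. Regions are named by their distance from the gene's 5′ end, 12 of them are filled and all of these lie to the right of 0.

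Control 3 was the lowest of the 6 libraries in all 12 called regions and in 20 of the 27, against 24.8% of all shared regions. Within the members the controls were also the looser group, with a median SD of 0.29 beside 0.10 in HADA (0.32 and 0.15 over all shared regions). Without control 3, 13 member regions were called.

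Tcf7 (chr11:52143107-52174619, minus strand) had 6 regions, of which 3 were in all libraries and 1 was called. TCF-1 from this gene is an early T lineage factor downstream of Notch. The region +15.3 kb from the 5′ end (chr11:52158805-52159929) had summit pileups of 54, 45 and 31 in control 1, 2 and 3 and of 112, 115 and 109 in HADA 1, 2 and 3. The HADA libraries stood together above every control. Over background this was 23.6 ± 7.67 in controls and 51.2 ± 5.69 in HADA (mean ± SD, n = 3 each), a 2.17-fold difference. On the centred log2 scale the region was higher by 0.78 (SE 0.20, limma adjusted p = 0.0193).

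The tallest Tcf7 region that held a start, +8.1 kb (chr11:52164749-52166890), had pileups of 47, 37 and 22 in controls and 73, 64 and 74 in HADA. Its centred groups overlapped, and the difference of 0.43 (SE 0.24) was not called (limma adjusted p = 0.169). The region at +17.8 kb gave 0.26 (SE 0.16, limma adjusted p = 0.215). At the 5′ end itself, -0.5 kb, control 1 had no peak, while control 2 and 3 reached 26 and 15 and the HADA libraries 51, 40 and 43. At the other 2 Tcf7 regions, +29.5 and +1.1 kb, only control 1, HADA 1 and HADA 2 had a peak, with pileups of 15 to 36.

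Lef1 (chr3:130903919-131018005, plus strand) had 14 regions, 5 of them in all libraries and 2 called. Its start region, +1.9 kb (chr3:130904393-130906746), had pileups of 46, 39 and 32 in controls and 160, 130 and 151 in HADA. The gap between the groups was wide beside the spread inside either. Over background the levels were 21.2 ± 5.26 and 66.7 ± 1.56 (SD, n = 3 each), a 3.14-fold difference, and the centred log2 difference was 1.30 (SE 0.16, limma adjusted p = 0.00789), the smallest p among the member regions.

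At the 3′ part of Lef1, the region +98.4 kb (chr3:131001621-131002868) had 66, 41 and 26 in controls and 111, 114 and 109 in HADA. Control 1 came near the HADA libraries once centred, at 0.19 against 0.27 to 0.57. The difference of 0.81 (SE 0.28) sat just inside the threshold (limma adjusted p = 0.0483). Without control 3 it was 0.54 and no longer called (limma adjusted p = 0.0931), and it was called in 1 of the 6 fits that each left out a library.

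The other shared Lef1 regions, at +7.9, +47.4 and +89.7 kb, gave differences of 0.57, 0.16 and 0.21 and were not called (limma adjusted p = 0.0594, 0.559 and 0.379). A further region, +57.6 kb (chr3:130961268-130961750), had a peak in all HADA libraries, with pileups of 26, 22 and 17, and in no control. The libraries had 9, 8 and 6 Lef1 peaks in controls and 10, 10 and 11 in HADA, 7.67 ± 1.53 against 10.3 ± 0.577 (SD, n = 3 each).

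Gata3 (chr2:9861889-9894845, minus strand) had 4 regions and 1 of them was in all libraries. GATA3 is the zinc finger factor of early T cells and of T helper 2 cells. That region, +10.4 kb (chr2:9883036-9884741), held annotated starts of Gata3. Its summit also lay in, or within 3 kb of a start of, the antisense gene Gata3os, from which open chromatin cannot separate it. Its pileups were 35, 36 and 28 in controls and 114, 93 and 92 in HADA, with both groups tight and far apart. Over background they were 17.9 ± 2.73 and 45.3 ± 4.31 (SD, n = 3 each), a 2.54-fold difference, and the centred log2 difference was 0.97 (SE 0.16, limma adjusted p = 0.00905).

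The remaining 3 Gata3 regions had a peak in every HADA library and lacked one in control 3. At +0.5 kb the pileups were 26 and 17 in control 1 and 2 and 35, 47 and 25 in HADA, and at +18.6 kb they were 17 and 16 against 33, 32 and 36. At +22.3 kb control 1 alone had a peak, of 12, and the HADA libraries had 14, 15 and 19. Gata3 peaks numbered 5, 3 and 1 in controls and 5, 4 and 4 in HADA.

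Bcl11b (chr12:107876656-107970417, minus strand) had more peaks in HADA but no shared region that was called. BCL11B is the zinc finger repressor at which T cell commitment is completed. Of its 13 regions 2 were in all libraries, and neither was called. The region +82.8 kb (chr12:107887268-107888126) had 31, 37 and 29 in controls and 49, 52 and 41 in HADA, and after centring on the library the groups overlapped, with a difference of -0.08 (SE 0.19, limma adjusted p = 0.766) that turned to 0.30 when divided by background. The region +11.0 kb (chr12:107959014-107959933) had 27, 28 and 20 against 46, 35 and 46, a difference of 0.14 (SE 0.18, limma adjusted p = 0.548) that turned to -0.04 by fold rank, in units of a normal score of the rank. Both differences were smaller than their standard errors, which does not show equal height.

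In number, Bcl11b had 6, 4 and 5 peaks in controls and 9, 8 and 11 in HADA, 5 ± 1 against 9.33 ± 1.53 (SD, n = 3 each). Its start region (chr12:107969974-107970728) was absent from the list of control 1, had 17 and 11 in control 2 and 3, and had 28, 31 and 26 in HADA. Regions at +63.0 kb (chr12:107906916-107907660) and +43.0 kb (chr12:107927163-107927695) had a peak only in HADA, with pileups of 20, 15 and 22 and of 30, 19 and 20. At the genome-wide background the smallest pileup that could be called in a control was 7 to 8, and the limit at the local background of these regions was not computed. The regions at +7.6 and +28.1 kb had a peak in 1 control library each, of 17 and 9, and in no HADA library.

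Satb1 (chr17:52043114-52140622, minus strand) had 8 regions, 2 in all libraries, and none was called. SATB1 is a chromatin organiser rather than a lineage switch. Its start region, +0.5 kb (chr17:52138555-52140980), was the tallest of all 75 in HADA, with pileups of 202, 128 and 109 in controls and 329, 302 and 306 in HADA. The HADA libraries lay above all controls also once centred, though only just, at 1.84 to 1.97 against 1.15 to 1.80. The difference of 0.52 (SE 0.21) missed the threshold (limma adjusted p = 0.0794), was called without control 1 (0.72, limma adjusted p = 0.0184), and turned to -0.20 normal score units by fold rank. The region +20.0 kb (chr17:52119283-52121726) had 73, 47 and 55 against 90, 84 and 88 and a centred difference of -0.02 (SE 0.19, limma adjusted p = 0.942), or 0.36 over background.

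Tox (chr4:6686353-6991644, minus strand) had 9 regions, of which 3 were in all libraries and 1 was called. Its start region, +0.5 kb (chr4:6990259-6991608), had pileups of 36, 31 and 25 in controls and 81, 77 and 82 in HADA. Over background the levels were 16.7 ± 4.07 and 36.4 ± 2.05 (SD, n = 3 each), 2.18-fold apart, and the centred log2 difference was 0.77 (SE 0.17, limma adjusted p = 0.0129).

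The tallest Tox region lay in the intron at +66.8 kb (chr4:6924522-6925382), with pileups of 79, 69 and 16 in controls and 177, 169 and 188 in HADA. Control 3 stood far below the other controls here. The difference of 1.38 (SE 0.50) was not called (limma adjusted p = 0.0571). Left out in turn, each control moved it across the threshold, with 1.74 without control 1, 1.68 without control 2 and 0.71 without control 3 (limma adjusted p = 0.0359, 0.0488 and 0.0178). The third shared region, +21.0 kb, gave -0.15 (SE 0.20, limma adjusted p = 0.578) and turned to 0.23 over background and 0.20 by fold rank.

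The groups did not overlap in the number of Tox peaks. It had 3, 3 and 3 peaks in controls and 8, 6 and 8 in HADA, 3 ± 0 against 7.33 ± 1.15 (SD, n = 3 each). Peaks at +174.2 kb (chr4:6817280-6817983), +89.4 kb (chr4:6901484-6902648) and +56.6 kb (chr4:6934325-6935328) were in every HADA library and in no control, with pileups of 17, 29 and 18, of 22, 19 and 21, and of 15, 20 and 16. Another 3 Tox regions had a peak in 1 or 2 HADA libraries and in no control.

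Ets1 (chr9:32547517-32669116, plus strand) held 7 of the 12 called regions. It had 21 regions, 11 of them in all libraries. All 11 differences were positive, from 0.38 to 1.65, with a median of 1.06. The largest was at +49.6 kb (chr9:32596773-32597703), an intronic region with pileups of 22, 19 and 10 in controls and 91, 70 and 74 in HADA. The lowest HADA library stood far above the highest control. Over background the levels were 9.25 ± 3.78 and 35.5 ± 3.19 (SD, n = 3 each), 3.84-fold apart, with a centred log2 difference of 1.65 (SE 0.25, limma adjusted p = 0.00901).

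At +95.1 kb (chr9:32642318-32643489) the pileups were 27, 22 and 16 in controls and 84, 61 and 71 in HADA, a difference of 1.13 (SE 0.19, limma adjusted p = 0.00927). At +32.1 kb (chr9:32579147-32579918) they were 38, 33 and 15 against 118, 95 and 107, a difference of 1.37 (SE 0.29, limma adjusted p = 0.0124). At +84.3 kb (chr9:32631124-32632415) they were 42, 22 and 14 against 113, 102 and 78, a difference of 1.41 (SE 0.33, limma adjusted p = 0.0155). The groups did not overlap in any of these, and control 3 was the lowest library in each.

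The tall intronic region at +16.1 kb (chr9:32563133-32564040) had 81, 68 and 23 in controls and 264, 176 and 214 in HADA, a difference of 1.47 (SE 0.39, limma adjusted p = 0.0216). Without control 3 it was 0.98 and still called (limma adjusted p = 0.0116). At +36.2 kb (chr9:32583213-32584239) the pileups were 56, 49 and 22 against 132, 120 and 127 (1.06, SE 0.29, limma adjusted p = 0.0242), and at +111.5 kb (chr9:32658718-32659435) 51, 60 and 28 against 129, 116 and 133 (0.89, SE 0.25, limma adjusted p = 0.0259). Without control 3 these were 0.71 and 0.63, and both were still called.

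The internal Ets1 start, +59.8 kb (chr9:32606820-32608421), was the tallest Ets1 region in either group. It had pileups of 151, 129 and 136 in controls and 328, 251 and 285 in HADA. The groups did not overlap, but the centred difference of 0.42 (SE 0.16) was not called (limma adjusted p = 0.0642), and by fold rank it turned to -0.17 normal score units. Without control 3 it was 0.48 and called (limma adjusted p = 0.0364). The region at the 5′ end of the gene (chr9:32547033-32548203), which holds the start of the annotated gene, had pileups of 21, 14 and 19 in HADA and no peak in any control. Of the other shared regions, +104.9 kb gave 0.64, +73.7 kb 0.39 and +70.0 kb 0.38, none of them called (limma adjusted p = 0.0541, 0.116 and 0.117).

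Leaving out any 1 library kept 5 of the 12 calls in every fit, namely the Lef1 start, Gata3, and Ets1 at +32.1, +49.6 and +95.1 kb. Besides Lef1 +98.4 kb, the others were lost only with a HADA library left out. The Tcf7 region was not called without HADA 2 or 3 (limma adjusted p = 0.0824 and 0.0625), nor the Tox start (0.0591 and 0.0507), and Ets1 +84.3 kb was not called without HADA 2 (0.0599). Ets1 at +16.1, +36.2 and +111.5 kb was not called without HADA 1, 2 or 3 (limma adjusted p from 0.0577 to 0.0843).

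Peaks present in 1 group alone were counted as well. In all, 7 of the 75 regions (9.33%) had a peak in 3 HADA and 0 control libraries, against 7.01% of all regions, and 0 had the reverse, against 1.88%. They were the Lef1, Bcl11b, Tox and Ets1 regions described above, with a median pileup of 20.7. HADA libraries alone, in any number, held the peak at 21 of the 75 regions (28.0%, against 21.1% of all regions) and control libraries alone at 6 (8.0%, against 15.5%). Another 13 regions (17.3%, against 12.7% of all regions) had a peak in all HADA libraries and in 1 or 2 controls, while 0 had a peak in all controls and in 1 or 2 HADA libraries, against 5.17%. Among the regions without a control peak, the tallest was Ets1 +14.7 kb, with 72 and 54 in HADA 1 and 2 and no peak in HADA 3, a region picked out after its values were seen. The tallest without a HADA peak was Ets1 +107.7 kb, with 31 and 19 in control 1 and 3 and no peak in control 2, picked out in the same way.

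The number of peaks per gene was tested by a two-sided exact permutation of the libraries, for which 3 against 3 allows no p under 0.1. Lef1, Bcl11b and Tox had every HADA library above every control (exact permutation p = 0.1). When each library gave the same number of strongest peaks, the mean difference fell from 2.67 to 1 peak at Lef1, from 4.33 to 1 at Bcl11b and from 4.33 to 2.33 at Tox. Ets1 had 17, 13 and 12 peaks in controls and 17, 20 and 17 in HADA (exact permutation p = 0.3). Satb1 had 4, 3 and 4 against 6, 4 and 4 (exact permutation p = 0.6), and Tcf7 6, 4 and 5 against 6, 6 and 4 (exact permutation p = 1). For Gata3 the p was 0.5 by the same exact test. Adjusted over the 15397 protein-coding genes with a peak, the p-values were 0.793 or 1. Of all those genes 10.6% had every HADA library above every control and 1.98% the reverse, and of the 2516 genes with a mean of at least 3 peaks 24.4% and 2.90% did. The plot of peaks per gene shows the same values.

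**Figure D4:**
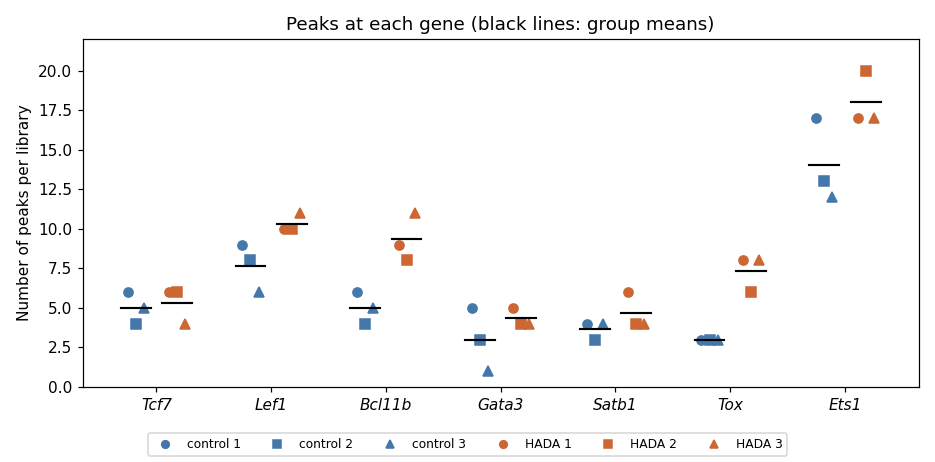
The vertical axis is the number of peaks assigned to each gene, each point 1 library (blue, control; orange, HADA) and each black line the group mean. The groups are apart at Lef1, Bcl11b and Tox and overlap or touch at Tcf7, Gata3, Satb1 and Ets1.

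The length of DNA under peaks separated the groups at all 7 genes (exact permutation p = 0.1 each, the smallest possible). HADA lay wholly above the controls in this length at 42.8% of all protein-coding genes with a peak and wholly below at 4.44%, and at 49.8% and 4.61% of those with a mean of at least 3 peaks. Ets1 had 11.4, 8.24 and 6.11 kb under peaks in controls and 14.5, 15.1 and 14.6 kb in HADA. Gata3 had 2.49, 1.50 and 0.509 kb against 3.12, 3.64 and 3.83 kb, and Tcf7 had 3.82, 3.57 and 2.44 kb against 5.51, 4.79 and 4.45 kb. Covered length grows with the number and the height of called peaks and is not a separate line of evidence. The tallest summit of each gene over background also lay apart at all 7, for example 17.4 ± 1.36 against 22.4 ± 3.21 at Bcl11b and 80.5 ± 33.9 against 142 ± 8.67 at Satb1 (SD, n = 3 each), the genes with the lowest and the highest HADA mean. Of the 12611 genes with a peak in all 6 libraries, 52.2% were apart in this way and 5.36% the other way, and of the 2501 of these with a mean of at least 3 peaks 49.4% and 7.44%.

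Partner and upstream factors of this network did not all move in 1 direction. The list of 18 genes held Notch receptors, RUNX and E proteins and other regulators of T cells, and of its 63 tested regions 17 (27.0%) were higher and 7 (11.1%) lower, against 17.9% and 24.1% of all shared regions, with a median of 0.28. Zbtb7b, which directs cells to the CD4 lineage, was higher by 1.04 at 1 region (limma adjusted p = 0.00898) and gave -1.09 at another (limma adjusted p = 0.0226). Foxo1, which drives homing and quiescence genes, was higher by 0.97 (limma adjusted p = 0.0102), and Notch3 by 1.44 (limma adjusted p = 0.00839). Notch1, the receptor that starts the T cell program, was lower at both its called regions (-1.87 and -1.20, limma adjusted p = 0.0111 and 0.0209), as was Runx1, a DNA-binding partner in early T cells (-1.86 and -1.54, limma adjusted p = 0.0118 and 0.0124). Both were picked out after their values were seen. A Myb region fell by 2.13 (limma adjusted p = 0.0086) while a second Myb region was higher by 0.72 (limma adjusted p = 0.0232). Of all 150 regions of the list, 12 (8.0%) had a peak in every HADA library and no control and 2 (1.33%) the reverse, close to the 7.01% and 1.88% of all regions.

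T cell surface and receptor signalling genes were mostly higher where they were called. The list of 16 genes had 28 tested regions, with a median of 0.49. Of these, 10 (35.7%) were higher and 1 (3.57%), at Cd6, was lower, against 17.9% and 24.1% of all shared regions. Lat, Lck and Zap70, which carry the T cell receptor signal, were higher by 0.93, 0.90 and 0.89 (limma adjusted p = 0.0111, 0.0162 and 0.0181), and Cd5, which dampens that signal, by 0.63 (limma adjusted p = 0.0182). The Cd6 region gave -1.43 (limma adjusted p = 0.0199). Summed over the tested regions and divided by background, the pileup of this list was 679 to 968 in controls and 1220 to 1370 in HADA. Division by background also put the median difference of all shared regions at 0.34 on the log2 scale.

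Effector and helper lineage factors were called at 3 regions. The list of 11 genes had 16 tested regions, of which 1 (6.25%) was higher, at Maf, a factor of interleukin-producing helper cells (0.75, limma adjusted p = 0.0159), and 2 (12.5%) were lower, at Zeb2, used by terminal effector cells and by monocytes (-1.32, limma adjusted p = 0.0129) and at Bcl6, the repressor of follicular helper and germinal centre B cells (-0.87, limma adjusted p = 0.034). Prdm1, whose product opposes BCL6, gave 0.54 (limma adjusted p = 0.0571), and the list's median was 0.18. Paralogs of the 7 factors went both ways, with 4 of 14 regions (28.6%) higher, 3 (21.4%) lower and a median of 0.26, beside 17.9% and 24.1% of all shared regions. The lower ones lay at Ets2, in both its called regions, and at Tcf7l1. Ets2, the closest relative of Ets1, fell by 2.32 at 1 region (limma adjusted p = 0.00975), where the controls had centred values of 2.15 to 3.63 and HADA of -0.09 to 0.94. Bcl11a, the relative of Bcl11b used by B cells, was higher by 1.15 (limma adjusted p = 0.0112). Bcl11a had another higher region (0.84, limma adjusted p = 0.0153), and regions of Tcf7l2 and Tcf7l1 were higher by 0.86 and 0.89 (limma adjusted p = 0.0126 and 0.0262), and Gata2 and Tox3 had no peak.

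Markers of other blood cells moved with the group as well. All 9 tested B cell regions were called higher, against 17.9% of all shared regions, with a median of 1.85. Among them were Pax5 (1.85), Cd79b (1.50) and Fcrla (1.50) (limma adjusted p = 0.0112, 0.00954 and 0.014). The summed pileup over background of the 10 B cell genes was 90.2 to 345 in controls and 703 to 792 in HADA, and 10 of the 53 B cell regions (18.9%, against 7.01% of all regions) had a peak in every HADA library and no control. Of the 25 neutrophil regions 8 were tested, and 7 of these (87.5%) were lower and 0 higher. Over all shared regions 24.1% were lower and 17.9% higher. The neutrophil median was -1.65, and the summed pileup was 212 to 467 in controls against 118 to 195 in HADA, while Camp had no peak. S100a8 and S100a9, which encode the abundant calprotectin subunits, Cxcr2 and Mmp8 gave -2.31, -2.08, -2.05 and -1.40 (limma adjusted p = 0.0109, 0.00927, 0.0112 and 0.0104).

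Of the 22 monocyte regions 9 were tested, and 6 of these (66.7%) were lower, against 24.1% of all shared regions. At Mpeg1, 1 region (11.1%, against 17.9% of all) was higher by 0.97 (limma adjusted p = 0.0118). The monocyte median was -1.13, and the summed pileup was 279 to 361 in controls against 240 to 291 in HADA. Another Mpeg1 region, Lyz2, Cx3cr1 and Cd68 gave -1.95, -1.68, -1.11 and -1.48 (limma adjusted p = 0.00903, 0.00903, 0.00914 and 0.00965). The 2 tested NK cell regions, at Nkg7 and Prf1, were not called, at 0.45 and 0.32 (limma adjusted p = 0.254 and 0.347), with a summed pileup of 25.3 to 48.6 against 46.6 to 62.0 and no peak at Klra8 or Klrg1. Among erythroid and platelet genes, 1 of 2 regions was higher, at Itga2b (0.91, limma adjusted p = 0.00927), with a summed pileup of 16.4 to 23.1 against 33.4 to 41.9 and no peak at Hba-a1, Alas2, Ppbp or Gp9.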

How the data were processed

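ATAC-seq gave 3 control and 3 HADA libraries, grouped by their labels. Per the labels and the study's methods, the authors used FastQC and Trimmomatic on the reads, Bowtie2 for alignment to GRCm39, Picard against duplicates and MACS2 for peaks of each library. Versions, options, read depth and any Tn5 shift are not given in the sources used here. The deposited peak lists hold a score, the fold enrichment ratio over local background, and the −log10 p and q of each peak.

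Summit pileup was solved from the deposited fold and −log10 p under a Poisson model, which returned 100% of p-values within a relative tolerance of 2e-05. Peaks sharing 1 bp were merged, and each region took the tallest peak of a library. limma 3.58.1 (R 4.3.3), without covariates, was fitted to all 23970 shared regions, tested on simulated data first. There, 200 of 23970 regions were changed by 1 on the log2 scale. The fit called 65 of these in the true direction and 2 unchanged ones, so a region not called is not shown to be unchanged. Python 3.11.15 did the rest. Alternatives were the scaling, the fold rank, the peak threshold and number, the merging, a 1 kb window, thinning, a replicate block and leaving out libraries. The rule for regions to name took, for each gene, the tallest holding a start, the 2 with the smallest p and those in 1 group alone. Every called region and some others are given beside these. List genes were the 4 with the smallest p, of which 1 is not reported here. The members and lists were chosen with earlier results of these data known.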

Additional observations from a re-analysis of the deposited data

How the results depend on the processing

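Higher calls numbered 12 of 27. They were 20 with pileup over background, 3 by fold rank, 5 to 16 with 1 library left out (5 without HADA 2, 6 without HADA 3), 15 with the prior spread as a trend, 8 of 19 tested with regions merged by summits, 9 of 21 at the stricter peak threshold, 9 of 24 on lists cut to equal length, 12 of 37 with a peak in at least 2 libraries of each group, and 12 of 27 under the other alternatives. Lower calls were 0 under every alternative run. Genes with every HADA library above every control in number of peaks were 3, but 2 on lists cut to equal length, 2 with pileups thinned to the lowest background, 4 at a stricter peak threshold and 3 to 5 with 1 library left out. HADA-only regions were 7, but 3 when each library gave its 34045 strongest peaks, and 7 to 10 with 1 library left out. Control-only regions were 0, and 0 to 2 with 1 library left out. The causes of these shifts were not tested, apart from the fewer samples or peaks that an alternative uses.

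Direction turned only in regions that were not called. By fold rank (normal score units) this was Tcf7 +17.8 kb -0.20, Lef1 +47.4 kb -0.14, Bcl11b +11.0 kb -0.04, Satb1 +0.5 kb -0.20, Tox +21.0 kb 0.20, Ets1 +59.8 kb -0.17 and Ets1 +70.0 kb -0.15. Over background it was Bcl11b +82.8 kb 0.30, Satb1 +20.0 kb 0.36 and Tox +21.0 kb 0.23. With 1 library left out, Bcl11b +82.8 kb ranged from -0.20 to 0.01, Satb1 +20.0 kb from -0.18 to 0.10 and Tox +21.0 kb from -0.27 to 0.00. The difference in Tcf7 peaks turned to -0.333 with the strongest peaks, -0.0996 per 10000 peaks and -0.167 without control 2 (-0.167 to 1 with 1 library left out), and that of Satb1 peaks to -1 with the strongest peaks.

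The replicate block left 12 higher and 0 lower calls, losing Lef1 +98.4 kb (limma adjusted p = 0.057) and gaining Tox +66.8 kb (limma adjusted p = 0.0338). Same-numbered libraries correlated at -0.08, 0.08 and -0.38 in their deviations from the group means, and the other pairs at -0.47 to 0.49. Deviations from a mean of 3 libraries are tied to each other, so these values do not decide whether the numbers pair the libraries.

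Peaks below a pileup of 7 to 9 were outside the lists, so a missing peak is no sign of closed chromatin.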

Other observations

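Regions beyond the genes, up to 200 kb away and with a member's start as the nearest protein-coding start, numbered 56. Of their 14 regions present in all 6 libraries, 7 were higher in HADA (50%, against 17.9% of all shared regions) and 1 lower (7.14%, against 24.1%). Of the 56, 4 (7.14%) had a peak in every HADA library and no control and 1 (1.79%) the reverse, close to the 7.01% and 1.88% of all regions. Upstream of Ets1 at -23.3 kb (chr9:32523614-32524694) the summit pileups were 30, 36 and 16 in controls and 178, 129 and 148 in HADA, a centred log2 difference of 1.91 (SE 0.26, limma adjusted p = 0.00827). Upstream of Satb1 at -43.0 kb (chr17:52183228-52184021) they were 32, 22 and 16 against 99, 88 and 99, a difference of 1.46 (limma adjusted p = 0.00898), although no region inside Satb1 was called. A region -52.9 kb from Lef1 (chr3:130850637-130851316) had 37, 38 and 19 against 138, 98 and 109, a difference of 1.30 (limma adjusted p = 0.0102).

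The 1 lower region lay beyond the 3′ end of Tox, +341.9 kb from its 5′ end (chr4:6649334-6650073), with pileups of 21, 45 and 22 in controls and 14, 16 and 20 in HADA, a difference of -1.36 (limma adjusted p = 0.0163). Near Tcf7 (-30.5 kb) and Gata3 (+198.2 kb) the differences were 0.35 and 0.07 (limma adjusted p = 0.141 and 0.78), and no region near Bcl11b was in all 6 libraries. Whether a distal region acts on the gene nearest to it was not tested.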
